A study of Mus musculus with 20 samples.

Results

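The interaction of Brg1 knockdown with dexamethasone (Dex) is, for each gene, the difference between the Dex responses of macrophages that had received siRNA against Brg1 and of macrophages that had received control siRNA. A Dex response is the change from lipopolysaccharide (LPS) alone to Dex with LPS, on the scale of log2(normalized count + 1). All 14 libraries treated with LPS or with Dex+LPS enter the interaction, out of 20 in the series, and 12061 of the 17787 genes in the deposited table were tested. A positive interaction means that Dex lowered the transcript less, or raised it more, in cells depleted of Brg1. It equals the knockdown effect in Dex+LPS minus the knockdown effect in LPS. A gene is called where its limma p, adjusted by the Benjamini-Hochberg method over all tested genes, is under 0.05.

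The cells were macrophages of male wild-type C57BL/6J mice, grown from marrow purified over Ficoll during 7 days with supernatant of L929 cells, a fibroblast line that secretes macrophage colony-stimulating factor. In every group the cells were transfected with siRNA at 50 nM, of 1 product per arm, for 48 h in total, and were treated in the final 6 h. The LPS groups received 100 ng/ml LPS with 0.1% ethanol, with control siRNA (n = 3) or Brg1 siRNA (n = 3). The Dex+LPS groups received 1 µM Dex with 100 ng/ml LPS, with control siRNA (n = 4) or Brg1 siRNA (n = 4). The vehicle groups had 3 libraries per siRNA, with ethanol and buffer. They enter only the filter on low genes, the estimate of the spread and the knockdown effect without LPS. While 3 replicates are stated in the design text, both Dex+LPS groups have 4 labelled libraries. Whether replicates were separate animals or cultures is not stated, and the p-values therefore reflect just the spread among these samples, which may be technical.

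BRG1, the product of Smarca4, is an ATPase of the BAF chromatin remodelling complexes, which move or evict nucleosomes and so open regulatory DNA. Dex activates the glucocorticoid receptor, the product of Nr3c1, a transcription factor that raises metabolic and anti-inflammatory genes in macrophages and lowers many genes that LPS induces through NF-kappaB, AP-1 and type I interferon signalling. BAF complexes are known partners of nuclear receptors, and the comparison asks how far the response to Dex depends on Brg1.

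The 14 libraries held 13.85 to 18.71 M reads. Smarca4 had 621, 559.5 and 600.1 normalized counts with Brg1 siRNA in LPS and 459.8, 414, 442 and 518 in Dex+LPS, below every control library (2989.8, 2899 and 2751 in LPS, 2032, 1745, 1905 and 2181 in Dex+LPS). Its own interaction was 0.18 (SE 0.11, limma adjusted p = 0.486), so the depth of the knockdown was not called different between treatments. All 7 defining macrophage markers were far above 0 in every one of the 14 libraries, from 478 normalized counts for the lowest value of the Fc receptor gene Fcgr1 to 118779 for the lowest value of the lysozyme gene Lyz2. The description labels number the libraries in a lower series (16) and a higher series (4), and each of the 4 groups compared here holds 1 library of the higher series. Residuals of these 4 libraries were positively correlated in 6 of 6 pairs (r from 0.21 to 0.41), so the main counts are also given without them.

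Dex acted in the same direction on most responding genes under both siRNAs, and Brg1 depletion changed the size of the response for a minority. Of the 12061 genes, 479 (3.97%) were called in the interaction, 332 (2.75%) higher and 147 (1.22%) lower. The median interaction was 0.69 among the genes called higher, -0.65 among those called lower and 0.01 over all genes. An interaction above 1 on the log2 scale was reached by 68 of the genes called higher, and 34 of those called lower were below -1. The last gene called had an adjusted p of 0.0497 and the first not called one of 0.0504. Without the 4 libraries of the higher series, 206 genes were called higher and 94 lower, and 246 of the 479 calls were kept, none with the opposite sign. With the series as a term in the limma fit, which keeps all libraries, 460 and 270 were called, and 479 of the 479 calls were kept.

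**Figure D1:**
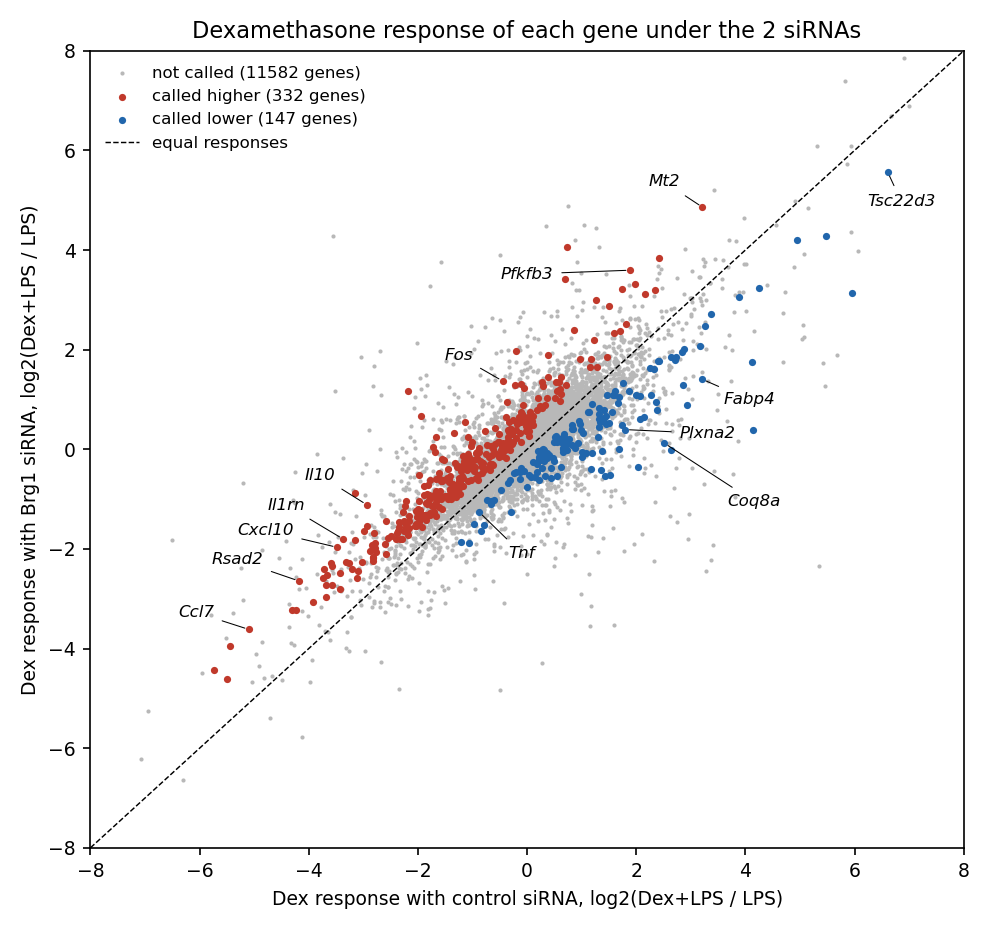
Dex response of each tested gene with control siRNA (x axis) and with Brg1 siRNA (y axis), in log2(Dex+LPS / LPS). Red and blue points are the 332 genes called higher and the 147 called lower in the interaction, grey points the others, and 2 genes lie outside the axes. The sign of the interaction puts red points above the diagonal and blue points below it, and most red points lie left of 0 and most blue points right of 0.

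The 2 Dex responses share no library and can be set against each other. With control siRNA limma called 2827 genes higher and 3041 lower in Dex+LPS than in LPS, and with Brg1 siRNA 2575 and 2777. Both siRNAs gave a rise in 1942 genes (median 0.75 with control siRNA and 0.74 with Brg1 siRNA) and a fall in 2281 genes (median -0.73 and -0.63). A rise with one siRNA and a fall with the other was called in 25 genes. Scaling by library totals moved the median gene by more than 0.1: it became 0.28 for the Dex response with control siRNA and 0.31 with Brg1 siRNA. The calls then were 5269 higher and 1647 lower with control siRNA, against 5388 and 1232 with Brg1 siRNA. The interaction depended less on this choice, with 390 higher, 115 lower and a median of 0.04.

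At the median, genes called higher in the interaction had a negative Dex response and genes called lower a positive one. These medians rest on the libraries that also define the interaction and are given as a description. In the 332 genes called higher, the median Dex response was -1.20 with control siRNA and -0.41 with Brg1 siRNA. In the 147 genes called lower it was 0.93 and 0.12. The median knockdown effect of the genes called higher was -0.21 in LPS and 0.42 in Dex+LPS, and that of the genes called lower was 0.63 and -0.11.

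Interferon-stimulated genes, the antiviral effectors and sensors that type I interferon induces, made up the most uniform group. LPS induces them in macrophages through TLR4, the adaptors TRAM and TRIF, and secreted interferon-beta, and signals from the interferon receptor drive them through a DNA motif, the interferon-stimulated response element. Of 52 tested members 38 were called higher and 0 lower, against 2.75% and 1.22% of all genes, and 51 of 52 had a positive interaction. The median interaction of the list was 0.69, against 0.01 over all genes. The exception was Gbp4, a guanylate-binding GTPase, which was listed at 0 in every Dex+LPS library and was not called (limma adjusted p = 0.669), so no fold is given. Dex still lowered the list: 50 of 52 members fell with control siRNA (25.2% of all genes) and 51 with Brg1 siRNA (23%). The median Dex response was -1.89 with control siRNA and -1.24 with Brg1 siRNA. Without the 4 libraries of the higher series, limma called 21 members higher and edgeR 23, the list's median being 0.64 and 0.61, and no member was called lower. None was lower at an unadjusted limma p under 0.05 with all 14 libraries or by edgeR or DESeq2 on them, which called 36 and 44 higher.

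Stretches upstream of 6 of these called genes are shown because their response element cores stand in the promoter window. They are RefSeq sequence of build GRCm38.p6, 5′ to 3′ on the strand of the gene, and capitals mark each match to GAAA, any 2 bases and GAAA, or to its reverse complement. Rsad2 (chr12:26456533-26456602, minus strand), Cxcl10 (chr5:92349063-92349132, minus) and Ifit1 (chr19:34640755-34640843, plus) come first, then Isg15 (chr4:156200845-156200926, minus), Oas3 (chr5:120777695-120777764, minus) and Stat2 (chr10:128270248-128270315, plus).
Rsad2: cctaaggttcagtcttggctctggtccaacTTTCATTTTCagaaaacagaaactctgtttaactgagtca
Cxcl10: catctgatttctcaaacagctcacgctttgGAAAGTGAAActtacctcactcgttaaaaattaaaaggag
Ifit1: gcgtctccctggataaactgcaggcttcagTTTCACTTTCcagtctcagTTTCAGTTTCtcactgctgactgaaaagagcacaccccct
Isg15: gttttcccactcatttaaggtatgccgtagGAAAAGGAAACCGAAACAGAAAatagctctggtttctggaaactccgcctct
Oas3: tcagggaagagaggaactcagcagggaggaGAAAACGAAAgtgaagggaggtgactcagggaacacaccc
Stat2: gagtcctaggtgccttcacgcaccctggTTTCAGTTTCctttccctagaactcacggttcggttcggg
In Isg15 overlapping matches merge into 1 run, and in Ifit1 a pair of separate matches is visible. Rsad2, Cxcl10, Oas3 and Stat2 each hold 1 match.

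The window searched ran from 250 bases before to 50 after each annotated start. Of the 38 called interferon-stimulated genes, 28 matched the RefSeq table, with 35 promoters, and 54.3% of these held that core on either strand. Over all tested genes 3.37% of 11943 promoters held it. The share was 5.99% of 317 promoters for genes called higher that are not on the interferon list, and 4.29% of 163 promoters for genes called lower. The core of a glucocorticoid response element, ACANNNTGT, was found in 8.57% of the interferon promoters, 6.13% of the promoters of genes called lower and 4.19% of all. Other motifs were searched too. An AP-1 site was found in 22.9% of the interferon promoters, 10.4% of the promoters of genes called lower and 5.32% of all. For an interferon-gamma activated site these shares were 11.4%, 9.82% and 6.77%. For a kappaB site they were 2.86%, 0.61% and 1.41%. The response element core was thus not the only motif more frequent in the interferon promoters than in all. These differences were not tested. The listed genes are known to be driven through the response element, so a high share of its core was built into the list. Members that were not called were not counted apart, and the share therefore says nothing about the interaction. The matching stretches of Ifit3 and Ifit3b are identical and count as separate promoters. A match describes letters in this window and not binding.

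Rsad2 (ENSMUSG00000020641, chromosome 12, 26442746 to 26456452 in GRCm38, as for all positions below), which encodes the antiviral enzyme viperin, had the largest called interaction of the list. With control siRNA its normalized counts were 45919, 47005 and 46163 in LPS and 3137, 1972, 2706 and 2559 in Dex+LPS. With Brg1 siRNA they were 58762, 50488 and 60029.7 in LPS and 9494, 9053, 9501 and 8044 in Dex+LPS. All Dex+LPS libraries lay below all LPS libraries, and within Dex+LPS the libraries with Brg1 siRNA lay well above those with control siRNA. The Dex response of Rsad2 was -4.18 with control siRNA and -2.64 with Brg1 siRNA, an interaction of 1.54 (SE 0.17, limma adjusted p = 3.97e-05). In the authors' deposited table its log2 fold changes for the same Dex responses were -4.16 and -2.64.

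Cxcl10 (ENSMUSG00000034855, chromosome 5, 92346638 to 92348889) encodes a chemokine that attracts activated T cells. Normalized counts in LPS were 17459, 16079 and 18337 with control siRNA against 23288, 22412 and 23859 with Brg1 siRNA. In Dex+LPS they were 1743, 1374, 1443 and 1647 with control siRNA against 6256, 5259, 6166 and 6086 with Brg1 siRNA. The groups did not overlap, and the gap between the siRNAs was 0.42 on the log2 scale in LPS and 1.94 in Dex+LPS. The interaction was 1.51 (SE 0.18, limma adjusted p = 6.17e-05). Art3 lies on the opposite strand across Cxcl10, and which strand was counted is not given in the sources used here.

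Ifit1 (ENSMUSG00000034459, chromosome 19, 34640871 to 34650009), whose product binds viral RNA, held 26120.3, 27021 and 25785 normalized counts in LPS with control siRNA against 30479, 27675 and 30900.3 with Brg1 siRNA. In Dex+LPS it held 6791, 5049.6, 5615 and 5068 with control siRNA against 14298, 13486, 13750.4 and 12467 with Brg1 siRNA. The siRNA groups thus stood close together in LPS (0.17 on the log2 scale) and far apart in Dex+LPS (1.27). Its interaction was 1.10 (SE 0.13, limma adjusted p = 0.000103). Other antiviral effectors had interactions of 1.34 for Oasl1 (an inhibitor of Irf7 translation), 1.32 for Ifit2, 1.24 for the dynamin-like GTPase Mx2, 0.86 for the mitochondrial kinase Cmpk2 and 0.56 for the ubiquitin-like protein Isg15, and each of these was called. Called members at the low end were Irf9 (0.26) and Oas1g (0.38). Counts of near-identical relatives are uncertain: 61.8% of the 31-base words of Ifit3, 55.2% of those of Ifit3b and 55% of those of Oas1g also occur in other genes.

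**Figure D2:**
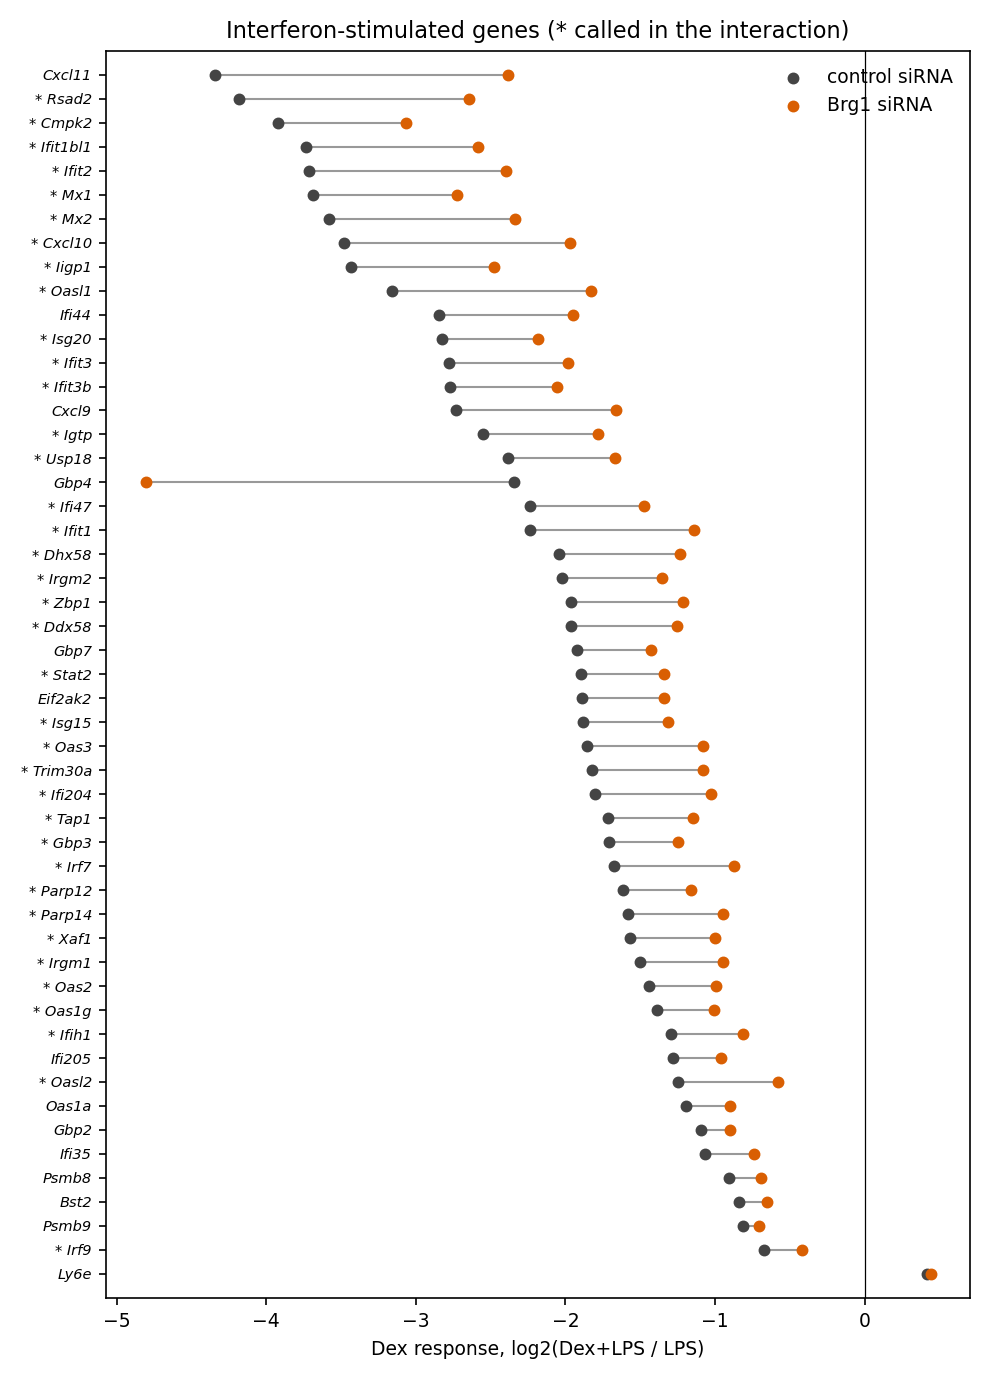
Dex response, in log2(Dex+LPS / LPS), of 51 of the 52 tested interferon-stimulated genes with control siRNA (dark points) and Brg1 siRNA (orange points), ordered by the response with control siRNA. The 37 plotted genes called in the interaction carry an asterisk, and the orange point lies to the right of the dark one for 50 of the 51.

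Seen as knockdown effects, the interferon-stimulated genes held calls in both directions in LPS and were nearly all called higher with Brg1 siRNA in Dex+LPS. In LPS 16 of 52 were called higher and 4 lower with Brg1 siRNA (17.3% and 15.8% of all genes). Called effects in LPS ranged from -1.28 for the chemokine gene Cxcl9 to 1.21 for Ifi205. In Dex+LPS 49 were called higher and 1 lower (19% and 15.3%). These comparisons share no library with each other. The median knockdown effect of the list was 0.15 in LPS and 0.80 in Dex+LPS, against 0.01 over all genes in each. In vehicle, whose libraries do not enter the interaction, it was 0.52. Under library totals the calls were 9 higher and 4 lower in LPS and 47 and 1 in Dex+LPS. Over all genes they were 1334 higher and 2919 lower in LPS (median -0.12) and 1653 and 2847 in Dex+LPS (median -0.09), where the deposited size factors gave 2089 and 1906, and 2289 and 1842.

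**Figure D3:**
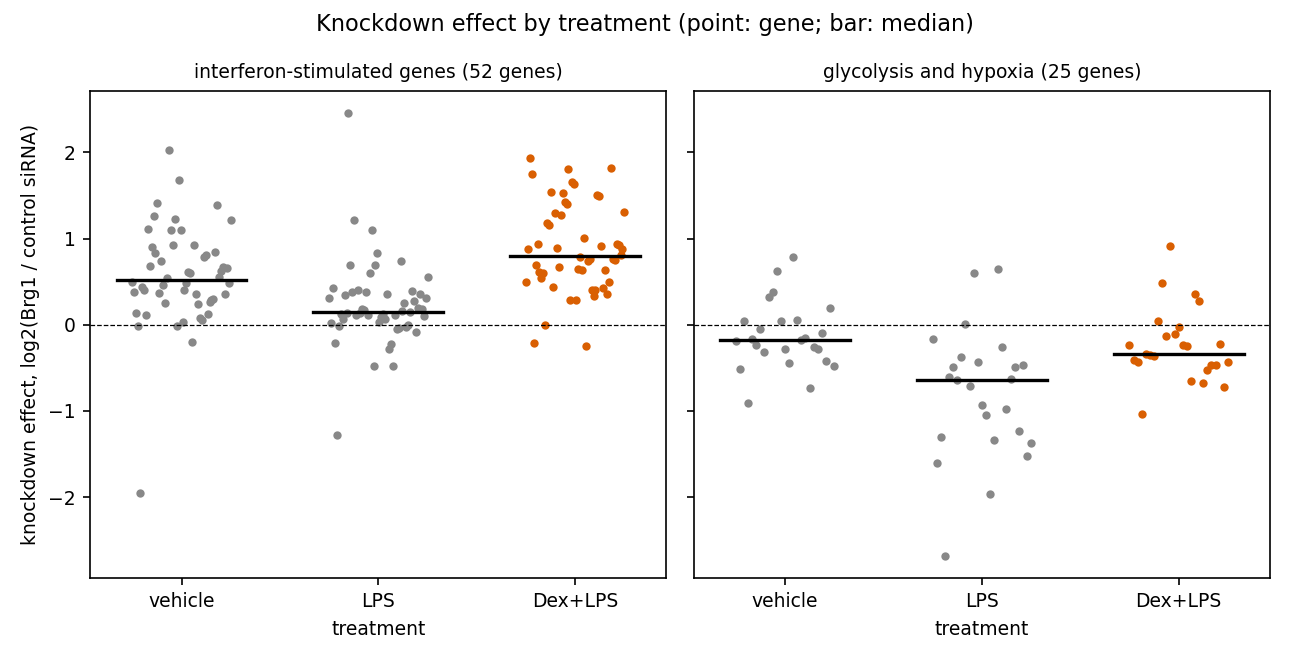
Knockdown effect, log2(Brg1 siRNA / control siRNA), in vehicle, LPS and Dex+LPS for the 52 interferon-stimulated genes (left) and the 25 genes of glycolysis and hypoxia (right). Each point is a gene and each bar the list's median: 0.52, 0.15 and 0.80 at left, -0.18, -0.64 and -0.34 at right.

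Among the genes that carry the interferon signal, from the LPS receptor to the transcription factors, 7 of 28 were called higher and 1 lower. These are 25% and 3.57% of the list, against 2.75% and 1.22% of all genes, and the list's median was 0.21. The list overlaps that of the interferon-stimulated genes: Stat2 and Irf9, both called, are on each. Irf7, the factor that amplifies interferon transcription, had 5597, 5687 and 6437 normalized counts in LPS with control siRNA against 10572, 10789 and 10156 with Brg1 siRNA. In Dex+LPS it had 2032, 1586, 1825 and 1991 with control siRNA against 5336, 5605, 5984 and 6033 with Brg1 siRNA. Brg1 siRNA libraries were higher in both treatments, and the distance was 0.83 in LPS and 1.63 in Dex+LPS, an interaction of 0.80 (SE 0.14, limma adjusted p = 0.00267). Phrf1 overlaps Irf7 on the opposite strand.

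Stat2 (0.56), Irf9 (0.26), the interferon-gamma receptor chain Ifngr2 (0.36), the feedback protease Usp18 (0.71) and the LPS receptor Tlr4 (0.79) were also called higher. Without the higher number series Tlr4 was not called (limma adjusted p = 0.0809). The gene called lower was Ticam2, the adaptor TRAM (-0.35, SE 0.089, limma adjusted p = 0.0317), whose call was kept in 12 of 27 alternatives. Ifnb1 itself had only 0 to 11.1 normalized counts in Dex+LPS libraries, and its interaction of 0.60 was not called (SE 0.66, limma adjusted p = 0.73). Irf1, Irf3, Irf5 and Irf8 were not called, with interactions from -0.13 to 0.39.

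The other lists of LPS response genes held calls in both directions. Of 33 tested primary response genes, which LPS switches on without new protein synthesis, 6 were called higher and 3 lower, against 2.75% and 1.22% of all genes, which is 18.2% and 9.09% of the list, and their median interaction was -0.03. Of 28 secondary response genes 3 (10.7%) were called higher and 2 (7.14%) lower, with a median of 0.02. Of 24 chemokines 4 were called higher and 1 lower (median 0.28). This list shares Cxcl9 (1.07, not called), Cxcl10 (1.51, called) and Cxcl11 (1.95, not called) with the interferon-stimulated genes. Of 23 cytokines of the interleukin families 2 were called higher and 2 lower (median -0.04).

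Il10 (ENSMUSG00000016529, chromosome 1, 131019845 to 131024974) encodes an anti-inflammatory cytokine and had the joint largest interaction of the named genes called higher. With control siRNA its normalized counts were 285, 292 and 308 in LPS and 48.9, 37.4, 36.6 and 29.8 in Dex+LPS, and with Brg1 siRNA 94.8, 72.3 and 81.8 in LPS and 42.3, 40.1, 37.4 and 31.4 in Dex+LPS. The siRNA groups overlapped in Dex+LPS, where both were low, while in LPS every library with Brg1 siRNA was below every library with control siRNA. The Dex response was -2.94 with control siRNA and -1.11 with Brg1 siRNA, and the interaction 1.82 (SE 0.25, limma adjusted p = 0.000387).

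Il1rn (ENSMUSG00000026981, chromosome 2, 24336853 to 24351494), which encodes the antagonist of the interleukin-1 receptor, showed another shape. Its normalized counts were 16437, 14412 and 15334 in LPS and 1788, 1302, 1499.7 and 1387 in Dex+LPS with control siRNA. With Brg1 siRNA they were 10934, 9295 and 10846 in LPS and 3269, 3033, 3034 and 2571 in Dex+LPS. Brg1 siRNA libraries were the lower ones in LPS and the higher ones in Dex+LPS, with no overlap in either treatment. The interaction was 1.57 (SE 0.15, limma adjusted p = 6.73e-06).

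Ccl7 (ENSMUSG00000035373, chromosome 11, 82045712 to 82047525), a monocyte chemoattractant, was lowered by Dex more strongly than any other chemokine tested with control siRNA. It had 513, 484 and 507 normalized counts in LPS and 12.7, 11.8, 13.2 and 17.6 in Dex+LPS with control siRNA, and 579.8, 502 and 521 in LPS and 49.2, 44.6, 39.5 and 37.9 in Dex+LPS with Brg1 siRNA. The siRNA groups overlapped in LPS, and in Dex+LPS those with Brg1 siRNA were all higher. The Dex response was -5.10 and -3.62, and the interaction 1.48 (SE 0.19, limma adjusted p = 0.000227). Ccl4, another chemokine, had an interaction of 0.56 (SE 0.092, limma adjusted p = 0.00136). Ccl2, the neighbour of Ccl7 in the chemokine cluster, had 0.63 (SE 0.17, limma adjusted p = 0.0476), a call kept in 12 of 27 alternatives.

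Ptgs2 (ENSMUSG00000032487, chromosome 1, 150100031 to 150108227) encodes cyclooxygenase-2, the inducible enzyme of prostaglandin synthesis. Its normalized counts in LPS were 159344, 160167 and 150082 with control siRNA against 194072, 168850.0 and 206869 with Brg1 siRNA. In Dex+LPS they were 9978, 6213, 9379 and 8056 with control siRNA against 23125, 20019, 20306 and 17798 with Brg1 siRNA. Both pairs of groups were separate, by 0.27 in LPS and 1.29 in Dex+LPS on the log2 scale, and the interaction was 1.02 (SE 0.18, limma adjusted p = 0.00296). Pla2g4a, the phospholipase that releases arachidonic acid, was also called higher, at 0.52 (SE 0.12, limma adjusted p = 0.0148). It was not called without the higher number series (limma adjusted p = 0.0754). Mmp13, a collagenase, had 1.31 (SE 0.19, limma adjusted p = 0.000574), and the transcription factor Atf3 had 0.52 (SE 0.11, limma adjusted p = 0.0122). The call of Atf3 was also not made without the higher series (limma adjusted p = 0.0673).

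Tnf (ENSMUSG00000024401, chromosome 17, 35199381 to 35202007), the central inflammatory cytokine, went the other way. With control siRNA its normalized counts were 105469, 111627 and 105988 in LPS and 58808, 64253, 55569 and 56316 in Dex+LPS. With Brg1 siRNA they were 203236, 195944 and 212568 in LPS and 83022, 84451, 88527 and 84031 in Dex+LPS. The groups with Brg1 siRNA were higher in both treatments, with no overlap, and the gap was wider in LPS (0.92) than in Dex+LPS (0.54). The Dex response was -0.88 with control siRNA and -1.26 with Brg1 siRNA, and the interaction -0.39 (SE 0.075, limma adjusted p = 0.00544).

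Egr2 (ENSMUSG00000037868, chromosome 10, 67535475 to 67542188), an immediate early transcription factor, had a larger interaction of the same sign. It had 648, 639.8 and 581 normalized counts in LPS and 483, 497, 483 and 565 in Dex+LPS with control siRNA, and 1524, 1659.9 and 1565 in LPS and 550.2, 770.4, 719 and 635 in Dex+LPS with Brg1 siRNA. The libraries with Brg1 siRNA and LPS stood far above all others, and the siRNA groups overlapped in Dex+LPS. The interaction was -0.95 (SE 0.13, limma adjusted p = 0.000469). Its Dex response with control siRNA, -0.30, became 5.89e-06 when libraries were scaled by their totals. Btg2, an antiproliferative gene (-0.33, SE 0.078, limma adjusted p = 0.0214), was the third primary response gene called lower, in 20 of 27 alternatives. Csf3, which encodes the neutrophil growth factor G-CSF, had -1.15 (SE 0.30, limma adjusted p = 0.0415) and was called in 8 of 27 alternatives. It was at 0 in the vehicle groups (SD 0), which also enter its SE, so this SE is not the spread of the compared libraries alone.

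Several prominent inflammatory genes were not called. The interaction was -0.34 for Il6 (SE 0.17, limma adjusted p = 0.336), 0.35 for Il1b (SE 0.27, limma adjusted p = 0.59) and 0.66 for the interleukin-12 subunit Il12b (SE 0.56, limma adjusted p = 0.629). It was -0.45 for Nos2, the inducible nitric oxide synthase (SE 0.39, limma adjusted p = 0.65), and 0.05 for Ccl5 (SE 0.13, limma adjusted p = 0.908). Standard errors differed widely among them, and those of Il1b, Nos2 and Il12b were above the median of 0.20 over all genes. Each SE pools the spread of all 6 groups. In vehicle the means of Il12b, Nos2 and Il1b ran from 1.12 to 19.9 normalized counts, and Il6 was at 0. Nos2 had SDs of 3.45 (mean 5.32, control siRNA) and 3.19 (mean 6.81, Brg1 siRNA) in vehicle. In LPS its SDs were 191 (mean 6327) and 305 (mean 12456), and in Dex+LPS 215 (mean 1919) and 171 (mean 2762). The part of vehicle in these SEs was not tested. DESeq2 called Nos2, and no other alternative called any of these 5. Of 20 NF-kappaB subunits and inhibitors 1 was called higher, Tnip2, an inhibitor of NF-kappaB signalling (0.70, SE 0.11, limma adjusted p = 0.00106), and 0 lower. These are 5% and 0% of the list, against 2.75% and 1.22% of all genes. At an unadjusted limma p under 0.05 this list had 2 higher and 3 lower, edgeR called 1 and 0, and DESeq2 2 and 1.

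**Figure D4:**
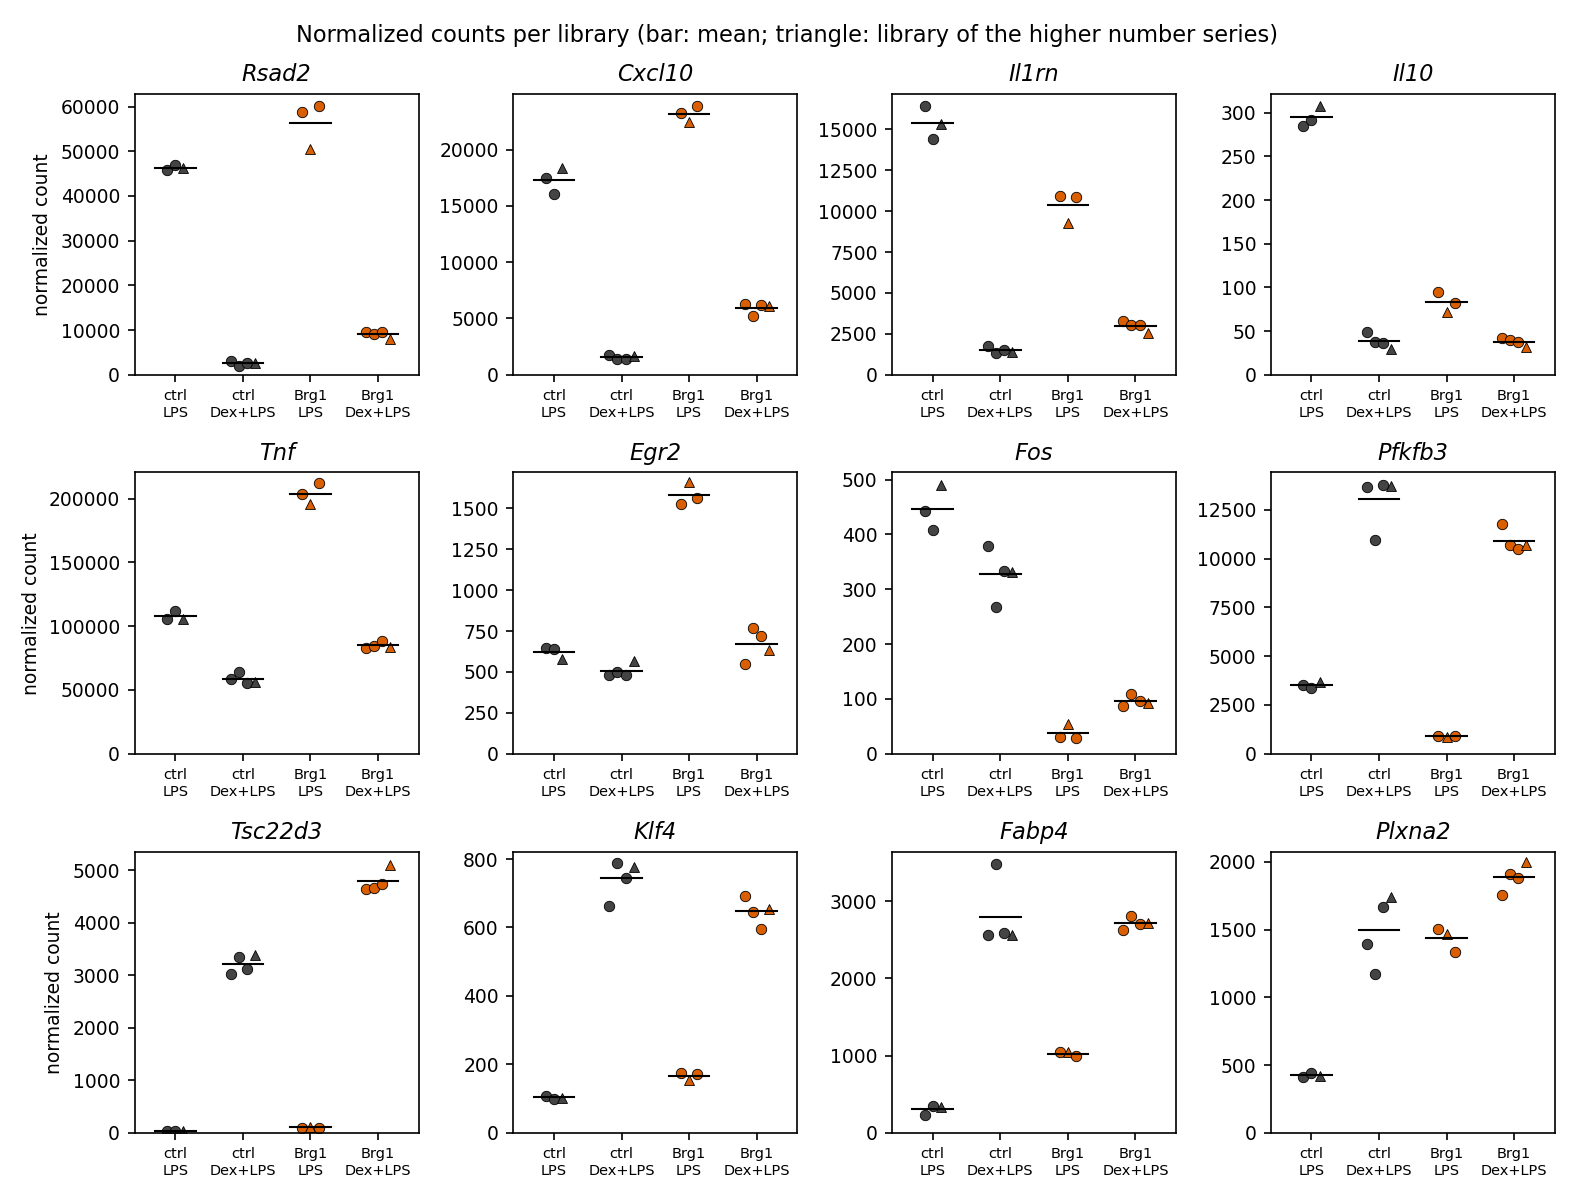
Normalized counts of 12 genes in each library of the 4 groups, with control siRNA in grey and Brg1 siRNA in orange, and horizontal bars for group means. Triangles are the libraries of the higher number series. In Rsad2, Cxcl10 and Tnf the siRNA groups are apart in both treatments, and in Egr2 they are apart in LPS only. In Pfkfb3, Fos and Fabp4 the gap seen in LPS narrows in Dex+LPS. The axes are linear, so a narrower gap at lower counts can be a larger fold difference, as in Dex+LPS for Rsad2 and Cxcl10.

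The list of glucocorticoid-induced genes held calls in both directions. Of 31 tested, 3 were called higher and 3 lower (9.68% each way, against 2.75% and 1.22% of all genes), and the median interaction was 0.09. Those called higher were Mt2, Mertk and Il10, and those called lower Tsc22d3, Klf4 and Marco. Not every member rose with Dex in these cells: under each siRNA limma called 17 of 31 higher in Dex+LPS and 8 lower. Dex lowered Il10 (-2.94 with control siRNA), and Marco had a Dex response of -0.004 with control siRNA. The list's median Dex response was 0.76 with control siRNA and 0.48 with Brg1 siRNA, against -0.01 and -0.02 over all genes.

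Tsc22d3 (ENSMUSG00000031431, chromosome X, 140539528 to 140600659), which encodes the leucine zipper protein GILZ, a mediator of glucocorticoid action, was called lower. Its normalized counts in LPS were 31.6, 25.5 and 40.6 with control siRNA against 93.5, 116 and 93.2 with Brg1 siRNA. In Dex+LPS they were 3023, 3355, 3126 and 3377 with control siRNA against 4635, 4667, 4740.2 and 5104 with Brg1 siRNA. Dex raised it strongly under both siRNAs and Brg1 siRNA libraries were higher in both treatments, so the lower interaction went with a higher starting level in LPS. The Dex response was 6.61 and 5.56, and the interaction -1.05 (SE 0.16, limma adjusted p = 0.000966).

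Klf4 (ENSMUSG00000003032, chromosome 4, 55527143 to 55532466), a transcription factor of monocyte differentiation, had 108, 99.5 and 103 normalized counts in LPS with control siRNA against 176, 153 and 170.5 with Brg1 siRNA. In Dex+LPS it had 661, 788, 746 and 778 with control siRNA against 693, 644, 596 and 654 with Brg1 siRNA. The siRNA groups were separate in LPS and overlapped in Dex+LPS, and the interaction was -0.88 (SE 0.13, limma adjusted p = 0.000686). Marco (ENSMUSG00000026390, chromosome 1, 120474538 to 120505024), a scavenger receptor for bacteria, had 7939, 8314 and 8924 in LPS and 7240.0, 10739, 7531 and 8339.5 in Dex+LPS with control siRNA, and 7312, 6745 and 7263 in LPS and 4144, 3997, 4283 and 4357 in Dex+LPS with Brg1 siRNA. Only with Brg1 siRNA were its Dex+LPS libraries separate from its LPS libraries, all of them lower. Its interaction was -0.76 (SE 0.14, limma adjusted p = 0.00422).

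Mt2 (ENSMUSG00000031762, chromosome 8, 94172664 to 94173568), a metallothionein that binds zinc and copper, was called higher. It had 1116, 851 and 1149.8 normalized counts in LPS and 7438, 11493, 8106 and 12065 in Dex+LPS with control siRNA. With Brg1 siRNA it had 169.6, 182 and 160.3 in LPS and 4519.6, 4128, 4554 and 7207 in Dex+LPS. Brg1 siRNA libraries were lower in both treatments, by -2.59 in LPS and by -0.94 in Dex+LPS on the log2 scale. The interaction was 1.65 (SE 0.27, limma adjusted p = 0.00119). Mertk, a receptor for apoptotic cells, had 0.41 (SE 0.11, limma adjusted p = 0.0423) and was called in 11 of 27 alternatives.

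Other members of the glucocorticoid-induced list responded to Dex under both siRNAs without a call in the interaction, some of them by falling. The Dex response of Fkbp5, a cochaperone of the receptor, was 5.31 with control siRNA and 6.09 with Brg1 siRNA, with an interaction of 0.77 (SE 0.23, limma adjusted p = 0.0772), and DESeq2 alone called it. Per1, a clock gene, had 3.28 and 2.99 (interaction -0.29, SE 0.19, limma adjusted p = 0.521). Klf9 had 3.02 and 2.95 (interaction -0.07, SE 0.20, limma adjusted p = 0.913). Dusp1, a phosphatase that inactivates MAP kinases, had 1.91 and 2.16 (interaction 0.25, SE 0.18, limma adjusted p = 0.549). Zfp36 fell, with -2.53 and -2.17 (interaction 0.35, SE 0.41, limma adjusted p = 0.75). Errfi1, Cdkn1a, Tgm2 and Nfkbia also had negative Dex responses under both siRNAs and no call in the interaction. Of the 24 tested genes of the glucocorticoid receptor and its partners and of the 24 tested BAF subunits, limma called 0 in either direction. With 3.97% of all genes called, lists of 24 are too short for 0 calls to set them apart. The receptor gene Nr3c1 had an interaction of 0.43 (SE 0.19, limma adjusted p = 0.251), with 3912, 2411, 4387 and 3720.2 normalized counts in Dex+LPS with control siRNA against 5023, 5072, 4756 and 4874 with Brg1 siRNA. At an unadjusted limma p under 0.05 the receptor list had 2 higher and 1 lower and the BAF list 1 and 3, and edgeR and DESeq2 called 0 in both.

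In the list of MAP kinase phosphatases and AU-rich mRNA decay, 3 of 20 were called higher by limma and 0 lower, also at an unadjusted p, while edgeR and DESeq2 called 2 higher and 0 lower. Over all genes limma called 2.75% higher and 1.22% lower. Zfp36l1, which binds AU-rich elements and speeds mRNA decay, had 12.4, 12.7 and 15 normalized counts in LPS and 77, 58.8, 61 and 56.6 in Dex+LPS with control siRNA. With Brg1 siRNA it had 41.1, 66 and 47.7 in LPS and 480.4, 449, 449 and 413 in Dex+LPS. Every Brg1 siRNA library was above every control library of its treatment, and the 4 in Dex+LPS were the highest of all. The interaction was 0.96 (SE 0.21, limma adjusted p = 0.0138), which was not called by edgeR or DESeq2 on the recovered reads. The others were Dusp6 (1.08, called in 21 of 27 alternatives) and Dusp16 (0.60, called in 25 of 27).

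Genes of glycolysis and of the hypoxia response leaned to higher interactions. Of 25 tested, 7 were called higher and 0 lower, against 2.75% and 1.22% of all genes (edgeR 7 and 0, DESeq2 10 and 0, unadjusted limma p under 0.05 in 14 and 0), 23 of 25 had a positive value, and the median was 0.47. Dex lowered 20 of them with control siRNA and 13 with Brg1 siRNA (medians -0.89 and -0.46), against 25.2% and 23% of all genes. Under library totals these counts were 17 and 7, with 8 called higher in the interaction. The knockdown effect was lower in LPS for 19 of 25 (median -0.64) and in Dex+LPS for 12 (median -0.34), against 15.8% and 15.3% of all genes.

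Pfkfb3 (ENSMUSG00000026773, chromosome 2, 11471433 to 11554077), whose product makes the activator of phosphofructokinase, had the largest called value of the list. Its normalized counts with control siRNA were 3501, 3361 and 3669.8 in LPS and 13689, 10942, 13764 and 13732 in Dex+LPS. With Brg1 siRNA they were 914, 879.8 and 913 in LPS and 11782, 10714, 10467 and 10717 in Dex+LPS. Libraries with Brg1 siRNA were far below the others in LPS, and the siRNA groups overlapped in Dex+LPS through control replicate 2. Unlike most of the list Pfkfb3 rose with Dex, by 1.89 with control siRNA and 3.59 with Brg1 siRNA, an interaction of 1.71 (SE 0.11, limma adjusted p = 5.18e-08). The other called members were the glycolytic kinases Hk1 (0.47) and Pfkp (0.53), the lactate exporter Slc16a3 (0.78), the pyruvate dehydrogenase kinase Pdk1 (0.81), the mitophagy receptor Bnip3 (0.87) and the hypoxia-induced gene Ndrg1 (0.91). In bulk RNA fewer cells of a type and less RNA per cell cannot be told apart.

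**Figure D5:**
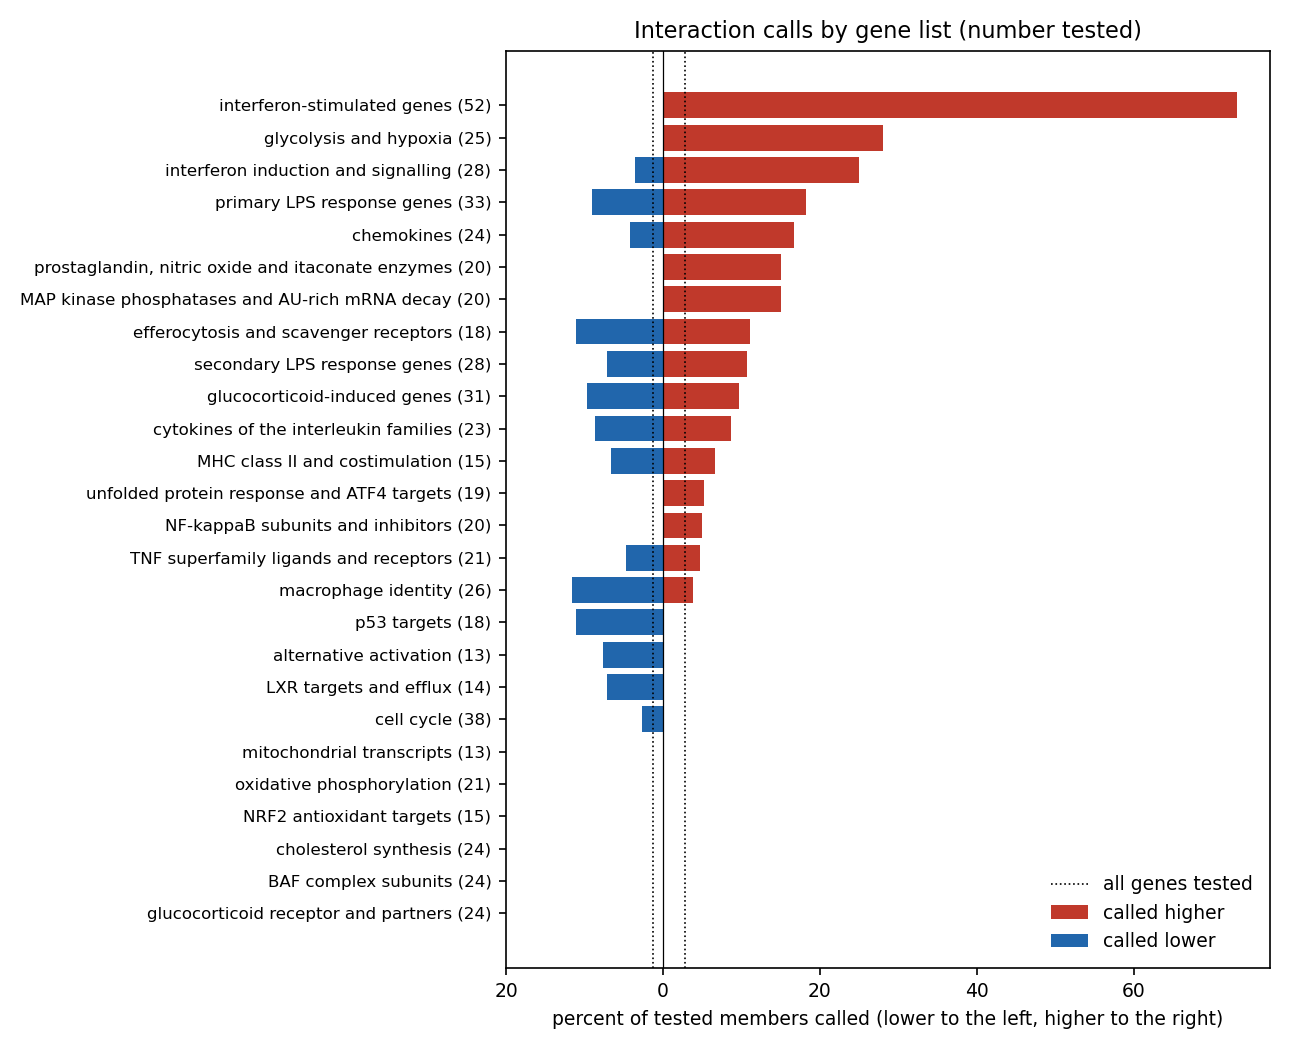
Percent of the tested members of each gene list that were called higher (red, to the right) or lower (blue, to the left) in the interaction, for lists with at least 10 tested genes. Dotted lines give the shares over all genes, 2.75% and 1.22%, and the interferon-stimulated list reaches 73.1% higher.

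The gene of smallest p was Myadm (ENSMUSG00000068566, chromosome 7, 3289080 to 3300442), a membrane protein of myeloid cells. It had 18439.5, 18981 and 18026 normalized counts in LPS and 5153, 5331, 5484 and 5244 in Dex+LPS with control siRNA, and 16131, 15937 and 16225 in LPS and 8722, 8716, 8589 and 8240.2 in Dex+LPS with Brg1 siRNA. The spread within groups was small, the groups with Brg1 siRNA were lower in LPS and higher in Dex+LPS, and the interaction was 0.89 (SE 0.053, limma adjusted p = 3.8e-08). Themis2, a signalling adaptor of the LPS response in macrophages, had 1.09 (SE 0.090, limma adjusted p = 1.62e-06). Marveld1, a membrane protein, had 1.41 (SE 0.11, limma adjusted p = 3.94e-07), with a Dex response of 2.42 and 3.83.

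Fos (ENSMUSG00000021250, chromosome 12, 85473890 to 85477273), a subunit of the transcription factor AP-1, led the genes whose Dex response changed sign. Its normalized counts with control siRNA were 442, 407 and 489.9 in LPS and 379, 268, 334 and 331 in Dex+LPS. With Brg1 siRNA they were 29.9, 54.8 and 29.6 in LPS and 86.9, 109, 96.2 and 93.3 in Dex+LPS. Dex+LPS libraries were below LPS libraries with control siRNA and above them with Brg1 siRNA, and all libraries with Brg1 siRNA were lower than those with control siRNA. The Dex response was -0.45 and 1.37, and the interaction 1.82 (SE 0.23, limma adjusted p = 0.000179). Rnd1 had 1692, 1562 and 2048 in LPS and 762, 799, 712 and 911 in Dex+LPS with control siRNA, and 384, 361 and 399 in LPS and 520.5, 526, 562 and 639.9 in Dex+LPS with Brg1 siRNA. Its Dex response was -1.15 and 0.55, again opposite in sign, with an interaction of 1.70 (SE 0.20, limma adjusted p = 8.98e-05). Ggta1, a galactosyltransferase, had -0.23 and 1.29 (interaction 1.51, SE 0.11, limma adjusted p = 2.06e-07), and Chst11, a chondroitin sulfotransferase, -0.37 and 0.95 (interaction 1.32, SE 0.13, limma adjusted p = 9.32e-06). The fall of Ggta1 with control siRNA turned to 0.07 under library totals.

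Among the genes called lower, Fabp4 (ENSMUSG00000062515, chromosome 3, 10204088 to 10208576), a fatty acid binding protein of macrophages and fat cells, stood out. It had 233, 347 and 331 normalized counts in LPS and 2566, 3482, 2593 and 2564 in Dex+LPS with control siRNA. With Brg1 siRNA it had 1042, 1043 and 989 in LPS and 2622, 2808, 2709.9 and 2721 in Dex+LPS. The siRNA groups were separate in LPS, where Brg1 siRNA libraries were higher, and overlapped in Dex+LPS. The Dex response was 3.21 and 1.41, and the interaction -1.80 (SE 0.17, limma adjusted p = 5.46e-06).

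Plxna2 (ENSMUSG00000026640, chromosome 1, 194618218 to 194816869), a semaphorin receptor, had 410.4, 442 and 417 normalized counts in LPS and 1394, 1173, 1665 and 1742 in Dex+LPS with control siRNA. With Brg1 siRNA it had 1505, 1464 and 1334 in LPS and 1754, 1912, 1884 and 1997 in Dex+LPS. Libraries with control siRNA and LPS were by far the lowest, and the interaction was -1.41 (SE 0.16, limma adjusted p = 5.61e-05). Coq8a, a kinase-like protein of coenzyme Q synthesis, had 36.1, 24.3 and 12.8 in LPS and 139.5, 169, 113 and 119 in Dex+LPS with control siRNA, and 175, 249 and 127 in LPS and 218, 183, 153 and 225 in Dex+LPS with Brg1 siRNA. Its interaction was -2.40 (SE 0.47, limma adjusted p = 0.00563), and it was not called without the higher number series (limma adjusted p = 0.0602). Cdc42bpa overlaps Coq8a on the opposite strand. Havcr2, the inhibitory receptor TIM-3, had -0.99 (SE 0.16, limma adjusted p = 0.00113).

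St3gal1, a sialyltransferase, was listed at 0 in all libraries but the 4 with control siRNA and Dex+LPS, where it had 378, 2206, 842 and 213 normalized counts. Limma called it lower (adjusted p = 2.21e-06), edgeR and DESeq2 did not, and no fold is given.

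Markers of macrophage identity held 1 call higher (Fcgr1, 0.74) and 3 lower among 26, with a median of -0.09. Over all genes 2.75% were called higher and 1.22% lower, the shares to set beside every list in this paragraph. The 3 markers called lower were Csf1r, the receptor for macrophage colony-stimulating factor (-0.32, called in 16 of 27 alternatives), Adgre1, which encodes F4/80 (-0.32, called in 26 of 27), and Lyz2 (-0.42, called in 21 of 27). Cell cycle genes had a median of -0.32 with 1 of 38 called, E2f1, lower at -0.70 (SE 0.16, limma adjusted p = 0.0151). Of these 38 genes 11 had a positive interaction. At an unadjusted limma p under 0.05 the list held 2 higher and 9 lower, while edgeR called 0 and 1, and DESeq2 1 and 1. Of 18 efferocytosis and scavenger receptors 2 were called higher (Mertk and Msr1) and 2 lower (Marco and Havcr2). Limma called 0 in the lists of cholesterol synthesis (24 tested), NRF2 targets (15), oxidative phosphorylation (21) and mitochondrial transcripts (13), all with medians from -0.10 to -0.08. In that order 7, 4, 1 and 2 members had a positive interaction, against 6127 of the 12061 genes. At an unadjusted limma p under 0.05 these 4 lists held 1 higher and 2 lower (NRF2), 2 lower (cholesterol), 1 lower (oxidative phosphorylation) and 0 (mitochondrial). EdgeR called 0 in each, and DESeq2 called 1 NRF2 target lower and 0 in the others.

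Limma also called 0 of the 21 tested markers of fibroblasts and of other blood cells (dendritic and mast cells, neutrophils, and B, T and NK lymphocytes), and no erythroid marker passed the filter. Over all genes 3.97% were called. At an unadjusted limma p under 0.05 there were 2 higher and 2 lower, edgeR called 0, and DESeq2 called 1 higher, the mast cell marker. Some of these lists moved with the treatments. The summed normalized count of 4 mast cell and basophil markers in the table was 68.5 to 87.9 in LPS and 0 to 8.55 in Dex+LPS with control siRNA, and 139 to 167 and 11.4 to 55.7 with Brg1 siRNA. The 10 dendritic cell markers summed to 1541 to 3350.0 and 682 to 2107 with control siRNA, and to 798 to 1499 and 519 to 1907 with Brg1 siRNA. Neutrophil markers (11 in the table) summed to 282 to 330 in LPS and 403 to 532 in Dex+LPS with control siRNA, and to 340 to 353 and 549 to 636 with Brg1 siRNA, higher in every Dex+LPS library than in any LPS library of the same siRNA. The 6 fibroblast markers summed to 986 to 1076 and 606 to 820.3 with control siRNA, and to 918 to 1104 and 503 to 594 with Brg1 siRNA, lower in every Dex+LPS library. The 5 B cell markers summed to 89.1 to 183 and 107 to 166 with control siRNA, and to 87.3 to 135 and 39.7 to 87.0 with Brg1 siRNA. The 6 T and NK cell markers summed to between 134 and 278 in the 14 libraries, with overlapping groups. The 26 macrophage genes summed to 656752 to 685496 in LPS and 621524 to 710846 in Dex+LPS with control siRNA. With Brg1 siRNA these sums were higher in both treatments, at 979142 to 995959 in LPS and 839510 to 845206 in Dex+LPS. The part of these markers in the interaction was not tested.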

How the data were processed

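RNA of 20 macrophage libraries was sequenced by the authors, who deposited 1 table of 17787 genes. Its signal columns hold normalized counts, that is read counts scaled by 1 factor in each library: per the file headers the normalization was that of DESeq, and 99.95% of the values above 0 were whole multiples, within 0.01, of the smallest step of their library. The table also holds log2 fold changes and p-values computed by the authors for their own comparisons. R 4.1.0, Salmon 1.4.0, DESeq2 and DESeq are named in the submitters' processing notes, with GRCm38.p6 and mm10 as builds and no role for any of them. Whether strand was used in counting is not given in the sources used here.

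Genes with at least 10 normalized counts in at least 3 of the 20 libraries were kept (12061). Limma 3.58.1 in R 4.3.3, with a mean-variance trend, was run on log2(normalized count + 1) with the 6 groups of 20 libraries in 1 fit, and the interaction was a contrast of 4 groups. A pseudocount of 1 understates changes of low genes. EdgeR 4.0.16 and DESeq2 1.42.0 on the recovered reads were alternatives, and edgeR called 316 genes higher and 180 lower. The pipeline was tested on simulated data. Libraries of the same replicate number had residual correlations from -0.17 to 0.41, over 0.1 in 2 of 19 pairs, and the main fit did not pair them. With so few libraries per group this check cannot show that the samples are unpaired. Depth ran from 13.69 to 18.71 M reads, which limits the precision of low genes.

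The interaction, the 33 gene lists and the rule for named genes were chosen with earlier results of these data known. The rule took the 15 largest called interactions in each direction with no 0 and a group mean of at least 100, up to 4 called members per list and direction, 18 genes whatever their result, the 8 largest with opposite Dex responses, and the 10 of smallest p, 93 genes in all. Genes named beside these as list members, or as St3gal1 and Gbp4 are, were chosen after their values were seen. Shared sequence was measured as the share of 31-base words of a gene's transcripts found in another gene. Alternatives changed the tool, scaling, pseudocount, filter, libraries, block, number series and weights. The values of 1 gene of the interferon lists are not reported here, although it is counted among the list members.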

Additional observations from a re-analysis of the deposited data

Results flagged for a closer look

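In 186 groups of 4 Dex+LPS libraries, made up of the named genes and both siRNAs, 12 held 1 library far from the other 3, by Dixon's 95% critical value. Chance alone flags about 1 in 20 groups, and 5 of the 12 libraries belong to the higher number series. With control siRNA, replicate 2 was low for Pfkfb3 (10942 normalized counts) and for Il6ra, the interleukin-6 receptor (219), and high for Ccl5 (28366) and Fabp4 (3482). Replicate 4 of that group was high for Egr2 (565) and low for Sh2d4a (168). With Brg1 siRNA, replicate 4 was high for Mt2 (7207), Ifnb1 (11.1) and Per1 (1291). In the same group replicate 3 was low for Glipr2 (169.9) and high for Atf3 (1007), and replicate 2 was low for Cxcl10 (5259). Why these libraries differ was not tested.

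The Dex response differed between the siRNAs, by the limma interaction test, in 332 genes more positive and 147 genes more negative with Brg1 siRNA.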

How the results depend on the processing

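Over 26 other ways of processing and 1 chosen after seeing the data (edgeR without the higher number series), no gene called in the interaction was called with the opposite sign. The counts of 332 higher and 147 lower stayed within 1.5 times of these values except as follows. Without the higher number series limma called 206 higher and 94 lower, and edgeR called 203 higher. The 99 genes that edgeR called lower there stayed within 1.5 times. Genes called lower were 257 with DESeq2, 88 with the 14 libraries fitted alone, 270 with the number series as a term and 226 with array weights. The 14 libraries fitted alone, without vehicle in the spread, gave 231 genes higher and kept 295 of the 479 calls. Leaving out 1 library at a time gave 236 to 347 genes higher and 110 to 169 lower, and kept 325 to 426 of the 479 calls. The fit with a replicate block called 382 higher and 188 lower, though same-numbered libraries are not known to be paired. The calls of the 4 other comparisons, both directions summed, stayed within 1.5 times under every alternative run, but library totals moved their split between higher and lower, as given with those comparisons. The 38 interferon-stimulated genes called higher became 21 without the higher number series, 23 with edgeR so, 30 to 41 when 1 library was left out, and at most 44 (DESeq2). The cause of these moves was not tested, beyond the smaller number of libraries where some were left out. The median SE was 0.20, and for genes with an SE near or above it small interactions were not detectable at this number of libraries. The SE also depends on the vehicle libraries, which share the estimate of the spread.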
